A study of Mus musculus with 12 samples.

Results

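The transcripts described here are those of 10 genes for neuropeptide and granin precursors. They comprise the granins Vgf, Scg2, Chga and Chgb, the convertase Pcsk1 that cuts such precursors, and the peptide precursors Penk, Pdyn, Tac1, Adcyap1 and Crh. The members were taken from the tables by gene symbol, and all 10 were found among the 21878 genes of each of the 12 tables. RNA came from the hippocampus of conditional double knockout mice (DKO), with Psen2 among the targets, and of WT mice, killed under pentobarbital anaesthesia at 9 p.m. (Night) or 9 a.m. (Day). Each of the 4 groups, Night DKO, Night WT, Day DKO and Day WT, had 3 libraries, and the series title sets the comparison in the context of circadian disruption and time-of-day-dependent memory. Psen2 encodes a catalytic subunit of gamma-secretase, the protease that releases amyloid beta and activates Notch. The promoter that drives the recombinase, the cells it acts in, the strain, age and sex of the mice, and any pooling of mice are among the details not given in the sources at hand. A library stands for a tissue sample, so a lower value in it cannot be told apart between fewer cells of a type and less RNA per cell.

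Neurons store peptide transmitters in dense-core vesicles. Granins help to build these vesicles and are themselves cut into peptides, and prohormone convertases such as PC1/3, the product of Pcsk1, cut the precursors at basic residues inside the vesicle. In hippocampus, transcription of several granin and peptide genes is known to follow neuronal activity through cAMP response elements in their promoters, and many peptide genes are used as labels of interneuron classes or of dentate granule cells.

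Promoter sequence from RefSeq (build GRCm38.p6) was at hand for 7 of the 10 genes, all but Vgf, Penk and Crh. Windows ran from 250 bases before to 50 bases after a transcription start, and a gene could have more than 1 start. For Pcsk1, Adcyap1 and a further window of Pdyn, the start used lay inside the gene span given below. That span begins at 75089420 for Pcsk1 and at 93198245 for Adcyap1. The full cAMP response element TGACGTCA was found in 3 of these 7 genes, Scg2, Chgb and Pcsk1, and in 549 of all 27025 genes of the table (2.03%). Its shorter form TGACG, searched on both strands and contained in the full element (the short site), was found in 6 of the 7 genes and in 23.0% of all genes. No window of Pdyn held either. The 120 bases before the start used for the window are shown for the 3 genes with the full element, and for Chga with a short site only. Scg2, Chgb and Chga were each called by genotype by day or averaged over time. Pcsk1 was called in no comparison and is shown for its full element. Capitals mark the full element, or in Chga the short site. A separate short site of Pcsk1, 50 bases before the start used, is left in lower case.
Scg2, chr1:79440027-79440146, minus strand: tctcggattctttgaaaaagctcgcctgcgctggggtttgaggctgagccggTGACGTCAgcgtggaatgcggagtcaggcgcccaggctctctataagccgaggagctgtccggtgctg
Chgb, chr2:132781522-132781641, plus strand: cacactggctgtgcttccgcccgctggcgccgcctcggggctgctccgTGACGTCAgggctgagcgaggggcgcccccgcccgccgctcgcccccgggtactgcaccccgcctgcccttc
Pcsk1, chr13:75089737-75089856, plus strand: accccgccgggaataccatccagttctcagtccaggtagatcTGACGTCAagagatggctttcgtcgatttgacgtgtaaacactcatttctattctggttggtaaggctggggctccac
Chga, chr12:102554821-102554940, plus strand: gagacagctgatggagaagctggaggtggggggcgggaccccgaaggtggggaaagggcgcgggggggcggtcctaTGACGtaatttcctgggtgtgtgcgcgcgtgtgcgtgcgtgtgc
The full elements began 68 bases before the start used in Scg2, 72 in Chgb and 78 in Pcsk1, and the short site of Chga began 44 bases before its start. The printed bases of Pcsk1 lie inside the gene span given below, so they precede only the start used for the window. A match is a description of the letters, and nothing was measured on the binding of a factor there.

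**Figure D1:**
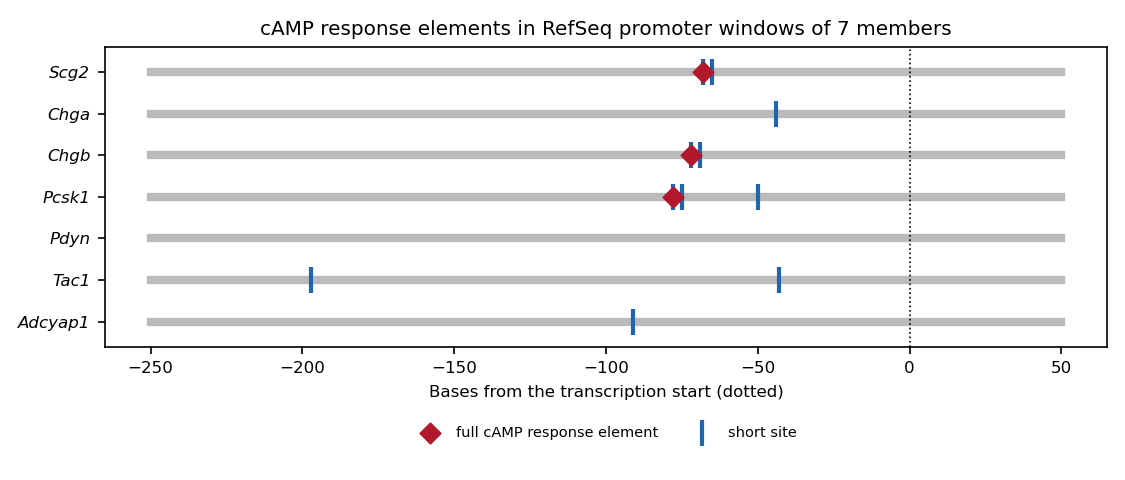
Position of the full cAMP response element (red diamonds) and of the short site on either strand (blue ticks) in the first RefSeq promoter window of 7 precursor genes, in bases from the transcription start used for the window (dotted line); grey bars are the windows. For Pcsk1 and Adcyap1 that start lies inside the gene span. The 3 full elements lie between 68 and 78 bases before the start, and the Pdyn window holds none.

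Levels are given in FPKM, the fragments of a gene divided by its transcript length and by the library total. The genotype labels were checked on Psen2, which averaged 0.477 ± 0.122 FPKM in Night DKO and 3.38 ± 0.381 FPKM in Night WT libraries, and 0.391 ± 0.123 FPKM in Day DKO and 2.00 ± 0.756 FPKM in Day WT libraries (SD, n = 3 each). It fell by 1.33 on the log2 scale averaged over time (adjusted p = 9.3e-05). Reads of Psen2 may be shared with an antisense transcript, since the use of strand in counting is not given in the sources used here.

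FPKM summed to between 151059 and 175692 per library, and the depth is unknown. The 12 markers of hippocampal excitatory neurons were detected in every library, though Iyd stood at only 0.0255 FPKM in Night WT replicate 3. Their summed level lay between 454 and 569 FPKM, of which Slc17a7 alone held 158.5 to 217.6 FPKM. The 8 hypothalamic markers summed to at most 4.70 FPKM, with Oxt, Agrp, Sim1, Otp and Nr5a1 under 0.5 FPKM in all 12 libraries. Avp reached 4.05 FPKM in Day DKO replicate 2, and Hcrt and Pmch at most 0.764 FPKM. Sums were 18.6 to 28.3 FPKM for 10 striatal markers and 6.27 to 17.9 FPKM for 7 of thalamus and habenula. Any part of neighbouring tissue in the member levels was not tested. The summed FPKM of 14 choroid plexus markers was 2012 to 3172 in Night DKO and 1434 to 3309 in Night WT libraries, and 78.6 to 1886 in Day DKO and 1185 to 2926 in Day WT libraries. The summed FPKM of 8 microglial markers was 101 to 226 in Night DKO and 99.1 to 114 in Night WT libraries, and 154 to 173 in Day DKO and 92.1 to 103 in Day WT libraries. The lowest microglial sum of the 6 DKO libraries, 101 FPKM, was that of Night DKO replicate 1, which lies within the WT range. Night WT replicate 1 had almost no Y-linked RNA (Ddx3y 0.0225 FPKM, against 6.83 to 8.56 FPKM in the other 11 libraries), so it differs in sex from the rest.

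The 10 genes fell into 4 separate ranges of level. Chgb (chromogranin B, an acidic granin of the vesicle core) stood alone with a mean of 107.5 FPKM over the 12 libraries, rank 190 among 17914 genes with a mean above 0. Scg2 (35.6 FPKM), Chga (30.3 FPKM) and Vgf (26.4 FPKM) came next, and their ranges over libraries overlapped. Pcsk1 (5.71 FPKM) and Penk (5.31 FPKM) overlapped with each other and lay below the granins. Pdyn (2.19 FPKM), Tac1 (1.82 FPKM), Crh (1.07 FPKM) and Adcyap1 (0.807 FPKM) formed the lowest range, in which neighbours overlapped. The gap between the highest and the lowest library was widest in Crh, 5.44-fold, and narrowest in Pcsk1, 1.38-fold. All 10 passed the filter of at least 0.5 FPKM in at least 3 libraries, Adcyap1 with 11 libraries at or above 0.5 FPKM and the other 9 with all 12.

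**Figure D2:**
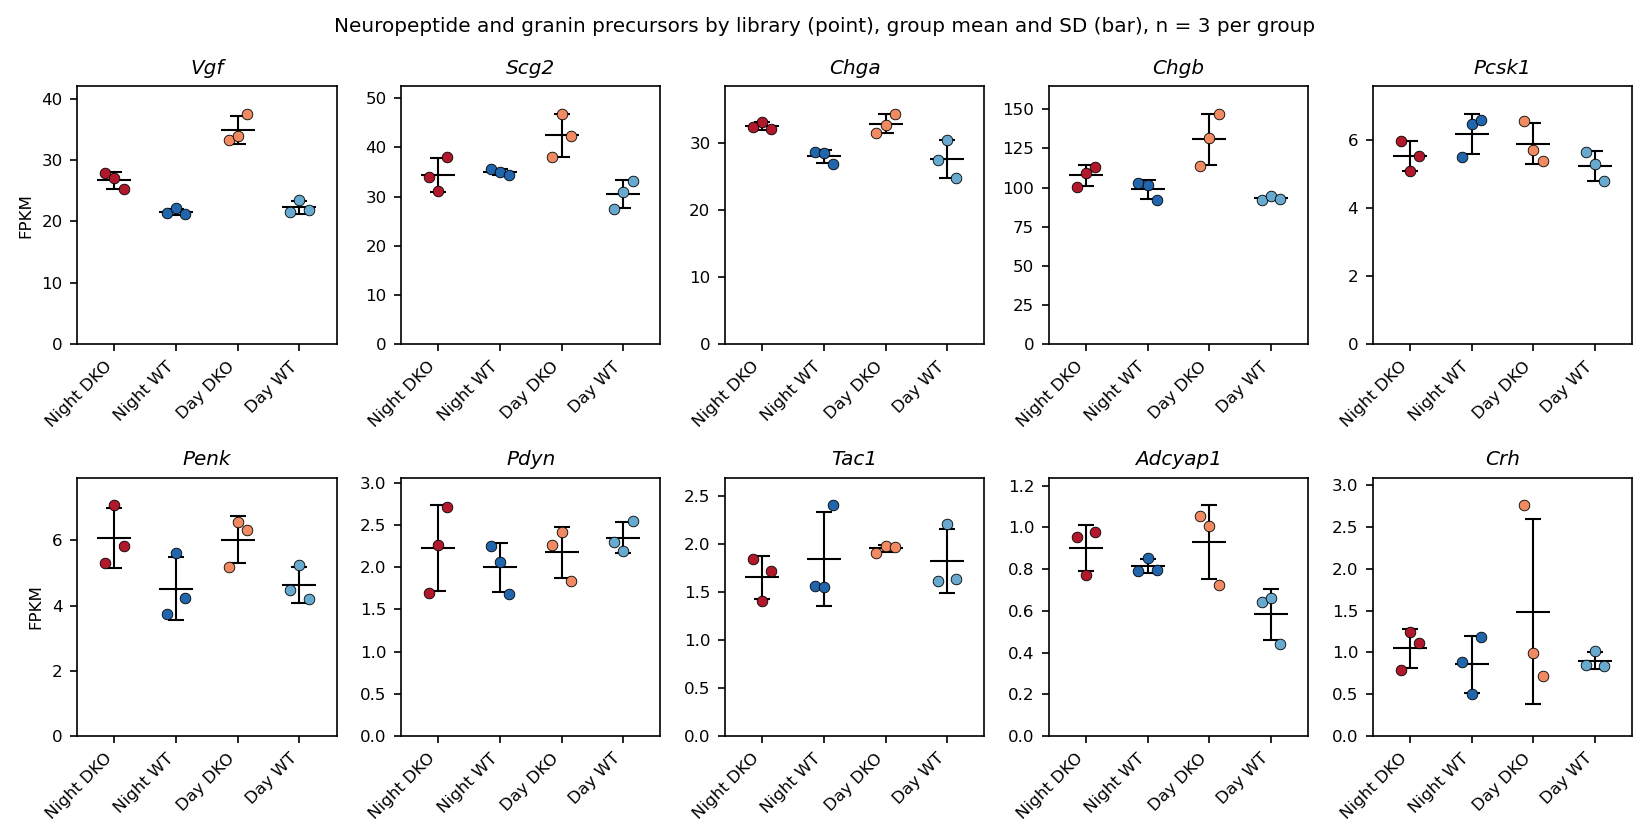
FPKM of the 10 precursor genes in each library (points), by group, with the group mean and SD (bars, n = 3); each panel has its own linear axis from 0. For Vgf, Scg2 and Chgb the Day DKO libraries hold the highest mean of the 4 groups, and 1 Day DKO library of Crh stands at 2.76 FPKM.

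By day, 3 of the 10 genes rose in DKO hippocampus, Vgf, Chgb and Scg2, and none fell. All 3 are granins. In the same comparison 0.796% of the 12689 genes tested were called higher and 0.386% lower (101 and 49 genes, or 62 and 65 with median-of-ratios scaling). At an unadjusted p under 0.05, 6 of the 10 were higher by day, against 11.9% of all genes. At night no member was called, against 0.0236% of all genes, that is 3 genes called by limma, all lower. At an unadjusted p under 0.05, 1165 genes passed at night, and so did Vgf, Chga and Penk among the members. In the same night comparison 3.78% of all genes were higher at that level.

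Vgf encodes a secreted granin-like precursor induced by nerve growth factor and BDNF (gene ID 381677, chromosome 5, 137025301 to 137033351, plus strand, GRCm38.p6). It measured 27.8, 27.0 and 25.2 FPKM in Night DKO, against 21.3, 22.1 and 21.3 FPKM in Night WT libraries. By day it measured 33.3, 33.9 and 37.5 FPKM in Day DKO, against 21.5, 23.4 and 21.9 FPKM in Day WT libraries. The genotypes did not overlap at either time, the Day DKO libraries were the highest of all, and both WT groups shared 1 range. Means were 1.24-fold those of WT at night and 1.57-fold by day. The log2 difference was 0.62 by day (95% interval 0.49 to 0.76, adjusted p = 0.00203) and 0.29 at night (0.16 to 0.42, adjusted p = 0.194). The day call was kept under all 18 other settings tried, choroid plexus level as a covariate included (0.67, adjusted p = 0.0129). As a covariate, that level was the mean log2(FPKM + 1) of the 14 choroid plexus markers in each library, not their summed FPKM.

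Scg2, secretogranin II (gene ID 20254, chromosome 1, 79434366 to 79440026, minus strand), is the precursor of secretoneurin. It measured 33.95, 31.1 and 38.0 FPKM in Night DKO, against 35.7, 35.0 and 34.4 FPKM in Night WT libraries, and the Night WT values lay inside the Night DKO range. Daytime values were 38.1, 46.8 and 42.4 FPKM in Day DKO, against 27.5, 31.0 and 33.1 FPKM in Day WT libraries, with no overlap. The day means differed 1.39-fold and the log2 difference was 0.46 (95% interval 0.27 to 0.65, adjusted p = 0.0319). The night difference was -0.03 (-0.23 to 0.16, adjusted p = 0.950). The Scg2 call was lost without any 1 of Day WT replicates 1 and 2, Day DKO replicates 2 and 3 (adjusted p = 0.0946 to 0.114) and Night WT replicate 3 (adjusted p = 0.0521). The Scg2 day difference with choroid plexus level as a covariate was 0.37 (adjusted p = 0.235). The choroid plexus sums of the Day DKO libraries (78.6 to 1886 FPKM) overlapped with those of the Day WT libraries (1185 to 2926 FPKM).

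Chgb (gene ID 12653, chromosome 2, 132781642 to 132795079, plus strand) measured 101, 109 and 113 FPKM in Night DKO, against 103, 102 and 92.0 FPKM in Night WT libraries. The day libraries gave 114, 131 and 147 FPKM in Day DKO, against 92.2, 94.3 and 92.6 FPKM in Day WT libraries. The day libraries did not overlap, the night libraries did, and the Day DKO libraries also spread most (SD 16.4 FPKM, against 1.13 in Day WT). The day means differed 1.40-fold, with a log2 difference of 0.48 (95% interval 0.29 to 0.66, adjusted p = 0.0257), and the night difference was 0.12 (-0.06 to 0.31, adjusted p = 0.706). The Chgb day call was lost without any 1 of Day WT replicates 1 and 2 and Day DKO replicates 2 and 3 (adjusted p = 0.0631 to 0.0964). With choroid plexus level as a covariate the Chgb day difference was 0.49 (adjusted p = 0.125).

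Chga, chromogranin A, is the archetype of the granins and a precursor of several peptides (gene ID 12652, chromosome 12, 102554941 to 102565027, plus strand). It measured 32.4, 33.2 and 32.1 FPKM in Night DKO, against 28.6, 28.6 and 26.9 FPKM in Night WT libraries. By day it measured 31.6, 32.8 and 34.4 FPKM in Day DKO, against 27.5, 30.4 and 24.8 FPKM in Day WT libraries. All DKO values were above all WT values at both times. The difference was of like size at both times, 0.21 at night (95% interval 0.06 to 0.36, adjusted p = 0.391) and 0.25 by day (0.10 to 0.40, adjusted p = 0.0973), and neither passed. Vgf and Chga were the 2 members whose genotypes did not overlap at either time, as did 1.57% of all genes with higher DKO values. At night alone, the same 2 members and 5.73% of all genes had every DKO value above every WT value.

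Pcsk1 encodes the convertase PC1/3 (gene ID 18548, chromosome 13, 75089420 to 75134861, plus strand). It measured 5.96, 5.08 and 5.53 FPKM in Night DKO, against 5.51, 6.46 and 6.58 FPKM in Night WT libraries. Daytime values of Pcsk1 were 6.56, 5.72 and 5.39 FPKM in Day DKO, against 5.65, 5.30 and 4.78 FPKM in Day WT libraries. The genotypes overlapped at both times. The differences were -0.14 at night (95% interval -0.32 to 0.05, adjusted p = 0.665) and 0.14 by day (-0.04 to 0.32, adjusted p = 0.422).

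Penk is the precursor of the enkephalins (gene ID 18619, chromosome 4, 4133536 to 4138815, minus strand). It measured 5.31, 7.08 and 5.81 FPKM in Night DKO, against 3.74, 5.61 and 4.22 FPKM in Night WT libraries. In the day libraries it stood at 5.19, 6.56 and 6.31 FPKM in Day DKO, against 4.47, 5.23 and 4.19 FPKM in Day WT libraries. In each group replicate 2 was the highest, and the genotypes overlapped at both times. The differences of 0.36 at night (95% interval 0.09 to 0.64, adjusted p = 0.422) and 0.32 by day (0.04 to 0.60, adjusted p = 0.235) did not pass. The gene overlaps A830012C17Rik on the opposite strand, so its level is uncertain.

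Adcyap1 is the precursor of PACAP, a peptide that raises cAMP in its target cells (gene ID 11516, chromosome 17, 93198245 to 93206541, plus strand). It measured 0.953, 0.774 and 0.976 FPKM in Night DKO, against 0.793, 0.853 and 0.797 FPKM in Night WT libraries. The day libraries gave 1.06, 1.01 and 0.726 FPKM in Day DKO, against 0.643, 0.662 and 0.443 FPKM in Day WT libraries. The day libraries did not overlap and their means differed 1.59-fold. On the log2(FPKM + 1) scale, which shrinks differences near 1 FPKM, the day difference was 0.28 (95% interval 0.10 to 0.47, adjusted p = 0.123) and the night difference was 0.07 (-0.11 to 0.25, adjusted p = 0.875). In all, 5 of the 10 members had every Day DKO value above every Day WT value, as did 14.3% of all genes.

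Crh is the precursor of corticotropin releasing hormone, made in hippocampus by interneurons (gene ID 12918, chromosome 3, 19693401 to 19695396, minus strand). It measured 0.789, 1.24 and 1.11 FPKM in Night DKO, against 0.881, 0.508 and 1.18 FPKM in Night WT libraries. In the day libraries Crh stood at 2.76, 0.991 and 0.712 FPKM in Day DKO, against 0.847, 1.02 and 0.840 FPKM in Day WT libraries. The high Day DKO mean rested on replicate 1. The day difference of 0.30 (95% interval -0.19 to 0.79, adjusted p = 0.524) became -0.04 without it (adjusted p = 0.896).

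Pdyn, the dynorphin precursor of dentate granule cells (gene ID 18610, chromosome 2, 129686549 to 129699938, minus strand), ranged between 1.68 and 2.71 FPKM over all 12 libraries. Tac1, the precursor of substance P (gene ID 21333, chromosome 6, 7555061 to 7562978, plus strand), ranged between 1.40 and 2.41 FPKM. In both genes the genotypes overlapped at both times. For Pdyn the difference was 0.10 at night (95% interval -0.15 to 0.34, adjusted p = 0.859) and -0.08 by day (-0.33 to 0.16, adjusted p = 0.757). For Tac1 it was -0.09 at night (-0.34 to 0.16, adjusted p = 0.875) and 0.07 by day (-0.17 to 0.32, adjusted p = 0.785).

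**Figure D3:**
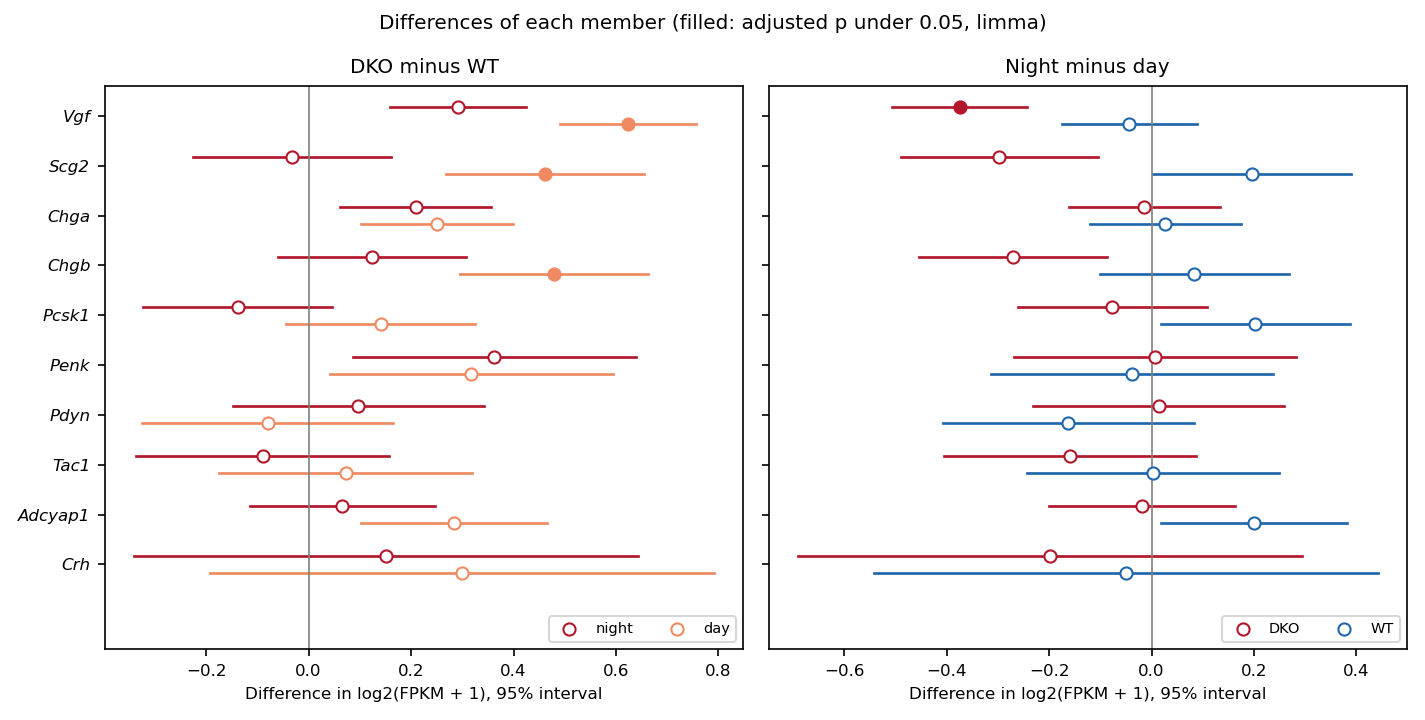
Differences in log2(FPKM + 1) for each gene with unadjusted 95% intervals from limma, DKO minus WT at night and by day (left) and night minus day in DKO and WT (right); filled points have an adjusted p under 0.05 over all genes. The filled points are Vgf, Scg2 and Chgb for genotype by day, and Vgf for time in DKO.

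Between night and day within DKO, 1 of the 10 genes changed. Vgf was lower at night (27.8, 27.0 and 25.2 FPKM in Night DKO, against 33.3, 33.9 and 37.5 FPKM in Day DKO libraries), a log2 difference of -0.37 (95% interval -0.51 to -0.24, adjusted p = 0.0212). In the same comparison 0.118% of all genes were called lower and 0.181% higher. The Vgf call was lost without any 1 of Day DKO replicates 2 and 3 and Night DKO replicates 2 and 3 (adjusted p = 0.0511 to 0.0798), and with choroid plexus level as a covariate (difference -0.42, adjusted p = 0.0697). Every Night DKO value was below every Day DKO value for Vgf, Scg2, Chgb and Tac1, 4 of 10 members, as for 6.44% of all genes. Of these, Scg2 differed by -0.30 (-0.49 to -0.10, adjusted p = 0.166), Chgb by -0.27 (-0.45 to -0.09, adjusted p = 0.180) and Tac1 by -0.16 (-0.41 to 0.09, adjusted p = 0.558), and none of the 3 passed. The choroid plexus sums were 2012 to 3172 FPKM in Night DKO and 78.6 to 1886 FPKM in Day DKO libraries.

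Between night and day within WT, no member was called, against 1.67% of all genes (192 called higher and 20 lower, or 22 and 33 with median-of-ratios scaling). Vgf was nearly level, with a difference of -0.04 (95% interval -0.18 to 0.09, adjusted p = 0.713). Scg2 and Adcyap1 had every Night WT value above every Day WT value, as did 24.3% of all genes. Their differences were both 0.20 (adjusted p = 0.217 for Scg2 and 0.185 for Adcyap1). Pcsk1 also differed by 0.20 (0.02 to 0.39, adjusted p = 0.186).

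Whether the genotype difference itself varied with time was tested by the interaction, the night difference minus the day difference. No member and no other gene passed (0.00% of all genes, with 1099 genes at an unadjusted p under 0.05). The interaction was -0.49 for Scg2 (95% interval -0.77 to -0.22, unadjusted p = 0.0018, adjusted p = 0.463) and -0.33 for Vgf (-0.52 to -0.14, unadjusted p = 0.0021, adjusted p = 0.463). It was -0.35 for Chgb (-0.61 to -0.09, adjusted p = 0.545) and -0.04 for Chga (-0.25 to 0.17, adjusted p = 0.918). In 4 members, the 3 above and Pcsk1 (-0.28, adjusted p = 0.563), the interaction was below 0 at an unadjusted p under 0.05, as in 6.87% of all genes. A day call beside a missed night call for Scg2 and Chgb is therefore not shown to differ between the times.

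Averaged over both times, Vgf, Chgb and Chga rose in DKO and no member fell, against 1.00% of all genes called higher and 0.875% lower (127 and 111 genes, or 138 and 180 with median-of-ratios scaling). The averaged differences were 0.46 for Vgf (95% interval 0.36 to 0.55, adjusted p = 0.000438), 0.30 for Chgb (0.17 to 0.43, adjusted p = 0.0263) and 0.23 for Chga (0.13 to 0.33, adjusted p = 0.0318). Scg2 (0.21, adjusted p = 0.108), Penk (0.34, adjusted p = 0.0741) and Adcyap1 (0.18, adjusted p = 0.157) did not pass. The Vgf call was kept under all 17 other settings tried. The Chga call was lost in 9 of the 12 fits without 1 library, all but those without Day WT replicate 2, Day DKO replicate 1 and Night WT replicate 2 (adjusted p up to 0.0829). That of Chgb was lost in 8, all but those without Day WT replicate 1, Day DKO replicate 1, Night DKO replicate 1 and Night WT replicate 2 (adjusted p up to 0.0694). Both calls were lost with no filter on low values, and that of Chgb also with choroid plexus level as a covariate. Markers of other cell types were called higher in the same comparison, 5 of 8 microglial markers (Csf1r, Tyrobp, C1qa, C1qb and C1qc, each kept in 3 to 8 of 17 other settings), 1 of 5 astrocyte markers (Gfap, 0.79, adjusted p = 0.029, kept in 7 of 17) and 1 of 12 excitatory neuron markers (Neurod2, 0.34), and the part of cell composition in the granin differences was not tested. Averaged over genotype, Vgf was the only one of the 10 members called between night and day, with a difference of -0.21 (adjusted p = 0.0204), against 0.875% of all genes called lower and 5.19% higher (111 and 659 genes, or 282 and 207 with median-of-ratios scaling). In that comparison 1 of 5 astrocyte markers (Aldh1l1, 0.18, adjusted p = 0.0283) and 1 of 4 oligodendrocyte markers (Mog, 0.33, adjusted p = 0.0251) were called higher at night. Of the 12 excitatory markers 1 was called lower at night (Neurod2, -0.21, adjusted p = 0.0467). The calls of Aldh1l1, Mog and Neurod2 were kept in 8, 12 and 5 of 17 other settings. None of the 8 interneuron, 8 microglial and 14 choroid plexus markers was called.

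The machinery that processes these precursors was compared in a list of 17 genes for dense-core vesicle biogenesis and peptide processing, all tested. None was called by genotype at night, by day or averaged over time, and the median difference by day was 0.08, beside 0.29 for the 10 members and 0.04 for all genes. At night these medians were 0.01 for the processing genes, 0.11 for the members and -0.01 for all genes. Cpe, carboxypeptidase E, which trims the cut peptides, averaged 527 FPKM in Night DKO and 485 FPKM in Night WT libraries, and 519 FPKM in Day DKO and 449 FPKM in Day WT libraries (averaged difference 0.16, adjusted p = 0.127). By time, averaged over genotype, 2 of the 17, Pam and Scg3, rose at night, beside 5.19% of all genes. Pam, the enzyme that amidates peptides, averaged 29.2 ± 0.262 FPKM in Night DKO and 27.0 ± 0.111 FPKM in Day DKO libraries, and 30.3 ± 1.31 FPKM in Night WT and 25.3 ± 1.44 FPKM in Day WT libraries (SD, n = 3 each), a difference of 0.18 (adjusted p = 0.0215). Scg3, a granin that binds chromogranin A in the vesicle, differed by 0.15 (adjusted p = 0.0464). Under the 17 other settings the Pam call was kept in 15 and that of Scg3 in 3, and with median-of-ratios scaling both differences stayed above 0 and missed the threshold (Pam 0.12, adjusted p = 0.060, and Scg3 0.09, adjusted p = 0.186). The convertase gene Pcsk2 differed by 0.17 and missed the threshold (adjusted p = 0.0524).

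Of 32 other neuropeptide genes, 19 passed the filter and none was called by genotype or time in any of the 7 comparisons. The smallest p by genotype was that of Vip, a marker of a class of interneurons, with an averaged difference of 0.48 (adjusted p = 0.0549). Vip measured 4.82, 8.78 and 7.48 FPKM in Night DKO, against 4.07, 5.91 and 6.02 FPKM in Night WT libraries. By day it measured 6.67, 7.24 and 7.38 FPKM in Day DKO, against 3.90, 4.19 and 4.62 FPKM in Day WT libraries. The day libraries of Vip did not overlap and the night libraries did. In the other direction, Cort differed by -0.56 (adjusted p = 0.110) and Npy, the abundant interneuron peptide, by -0.17 (adjusted p = 0.117). Of the 19 tested genes of this list, 14 had an averaged difference above 0. The 8 interneuron markers of the cell type list had no called gene by genotype. Of the 12 excitatory hippocampal markers 1 was called, Neurod2, a transcription factor of excitatory neurons, which rose in DKO by day (0.51, adjusted p = 0.0153, kept in 14 of 18 other settings) and averaged over time (0.34, adjusted p = 0.0146, kept in 16 of 17). It measured 22.9, 21.5 and 24.1 FPKM in Night DKO, against 19.4, 22.1 and 19.6 FPKM in Night WT libraries, and 26.4, 32.5 and 31.5 FPKM in Day DKO, against 20.4, 20.7 and 21.0 FPKM in Day WT libraries. The day libraries of Neurod2, like those of Vip, did not overlap. Every Day DKO value was likewise above every Day WT value in 5 of the 10 members and in 14.3% of all genes. The median of the excitatory list by day was 0.15, beside 0.04 for all genes, and the summed level of the list was 496 to 569 FPKM in Day DKO and 464 to 514 FPKM in Day WT libraries.

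Of 23 receptors and binding proteins for these peptides, 17 were tested, and 1 was called, Crhbp, which fell in DKO averaged over time by 0.43 on the log2 scale (adjusted p = 0.0204). Crhbp encodes the protein that binds and sequesters the Crh peptide. It measured 6.85, 4.79 and 4.85 FPKM in Night DKO, against 7.32, 8.62 and 8.69 FPKM in Night WT libraries. By day it measured 4.78, 4.74 and 4.88 FPKM in Day DKO, against 5.53, 6.90 and 6.62 FPKM in Day WT libraries. All DKO values of Crhbp were below all WT values at the same time. The call was kept in 11 of 17 other settings (adjusted p up to 0.0595). C3ar1 of the same list differed by 0.31 averaged over time and missed the threshold narrowly (adjusted p = 0.0509). Its means were 0.719 FPKM in Night DKO and 0.386 FPKM in Night WT, and 0.688 FPKM in Day DKO and 0.340 FPKM in Day WT libraries. Night DKO replicate 1, whose microglial sum lay within the WT range, held 0.405 FPKM of C3ar1, against 0.342 to 0.441 FPKM in Night WT libraries. Any part of microglia in the C3ar1 difference was not tested. Oprl1, the nociceptin receptor, differed by 0.17 (adjusted p = 0.0727).

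Of 29 activity-induced genes, 28 were tested and 7 were called higher by day in DKO, Nptx2, Dusp5, Ptgs2, Nrn1, Bdnf, Homer1 and Rgs2, with none lower, beside 0.796% of all genes called higher. At night none was called. The list as a whole stood near all genes by day, with a median of 0.06 beside 0.04. Of its 28 tested genes 17 were above 0, beside 7975 of all 12689, and the differences reached down to -0.53. Averaged over time, Nptx2, Dusp5 and Rgs2 were called higher. Under the 18 other settings the day call was kept in 15 for Dusp5, 14 for Nptx2, 13 for Homer1, 6 each for Ptgs2 and Nrn1, and 5 each for Bdnf and Rgs2. With choroid plexus level as a covariate none of the 7 was called (differences of 0.30 to 1.20, adjusted p = 0.0754 to 0.266). Bdnf, the neurotrophin that induces Vgf in cultured neurons, measured 3.75, 3.08 and 4.08 FPKM in Night DKO, against 4.52, 4.46 and 4.08 FPKM in Night WT libraries. By day Bdnf measured 4.89, 4.87 and 5.11 FPKM in Day DKO, against 3.31, 3.38 and 4.01 FPKM in Day WT libraries, a difference of 0.39 (adjusted p = 0.0469). Nptx2, a secreted synaptic pentraxin, had the largest day difference of the 7, 1.15 (adjusted p = 0.0159). Within DKO, Homer1 was the only gene of this list called between night and day, with a night minus day difference of -0.35 (adjusted p = 0.0436), a call kept in 6 of 18 other settings. Within WT, Rgs2 was the only one called, higher at night (0.29, adjusted p = 0.0339, kept in 10 of 18). Rgs2 was also the only one called by time averaged over genotype (0.22, adjusted p = 0.0110, kept in 17 of 17), beside 5.19% of all genes called higher.

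**Figure D4:**
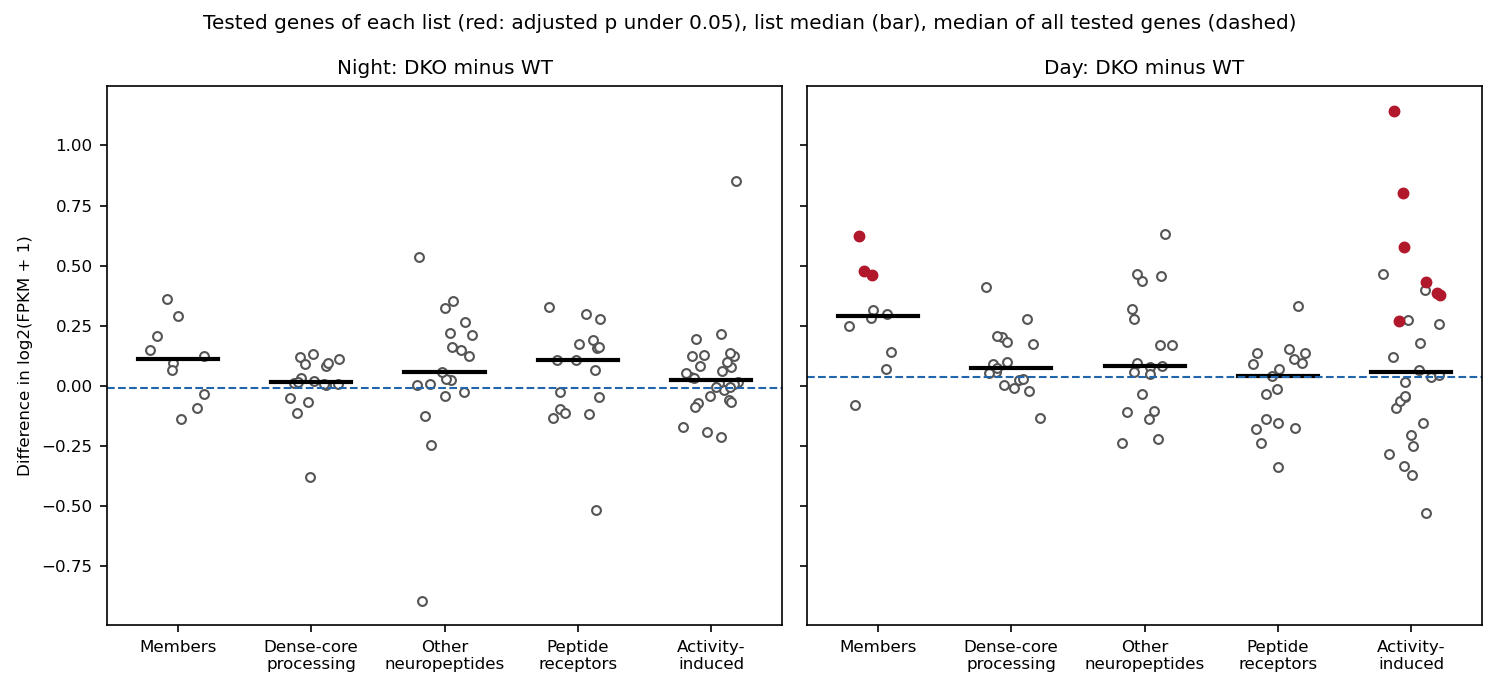
Differences in log2(FPKM + 1), DKO minus WT, at night (left) and by day (right) for the tested genes of 5 lists (points, red where the adjusted p is under 0.05), with each list's median (bar) and the median of all 12689 tested genes (dashed). By day red points appear among the members (3) and the activity-induced genes (7), and at night there are none.

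The genes whose profile over the 12 libraries was most like that of each member were found from the root mean square difference of standardized log2(FPKM + 1) values, which is 0 for identical profiles and 1.41 for uncorrelated ones. For Vgf these were Sorcs2 (0.282), Pcdh8 (0.302) and Rin1 (0.308). For Chgb they were Skil (0.254), Sorcs3 (0.333) and Trnp1 (0.350), for Scg2 Thrsp (0.315), Stk16 (0.399) and Cyb5r4 (0.405), and for Chga Gmpr (0.363), Ptpn5 (0.412) and Cltb (0.450). Among the members themselves, Vgf and Chgb were closest to each other (0.468), followed by Scg2 and Chgb (0.596), Chga and Penk (0.613) and Vgf and Chga (0.625). The nearest gene lay farther off for Pdyn (Fam184b, 0.637), Crh (Spred1, 0.600), Tac1 (Kiz, 0.561) and Pcsk1 (Arf6, 0.458), and stood at 0.365 for Penk (Rprm) and 0.383 for Adcyap1 (Elac1). The libraries share groups, so likeness here includes the group differences described above.

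The terms of the Gene Ontology in the deposited tables gave neuropeptide hormone activity for 5 of the 10 genes, against 0.123% of all 21878 genes. They gave neuropeptide signaling pathway for 4, against 0.389%, and extracellular region for 9, all but Pcsk1, against 7.62%. A term for secretory granules or the dense core was held by 4, the granins Vgf, Scg2, Chga and Chgb, against 0.955%.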

How the data were processed

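The authors deposited 1 table of FPKM per library. The headers hold sample names only, so the unit was inferred from the values. Per the labels' protocols, libraries were of the TruSeq Stranded Total RNA type, depleted of ribosomal RNA with Ribo-Zero Gold. Per the submitters' processing notes, the build was GRCm38.p6. Not given in the sources used here are the aligner, quantifier and annotation release. Without counts, the depth is unknown and no counting interval could be computed.

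Values were transformed to log2(FPKM + 1), and 12689 genes with at least 0.5 FPKM in at least 3 libraries were fitted with limma (version 3.58.1, R 4.3.3; 1 mean per group, 12 libraries, trended prior). The call threshold was an adjusted p (Benjamini-Hochberg, all tested genes, 2-sided) of 0.05, and every adjusted p in the text is from this fit or a named alternative. Fold values are ratios of mean FPKM. Whether libraries are separate mice is not labelled, so p-values reflect only the spread among these samples, which may be technical. Members, gene lists, motifs and tests were chosen with earlier results of these data known. Genes could be named if they were members, Psen2, called list genes, among the 5 genes of a list with the smallest averaged p, or among the 3 most like a member. Hypothalamic markers and Ddx3y were named after their values were seen. Scripts were tested on simulated data.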

Additional observations from a re-analysis of the deposited data

Results flagged for a closer look

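The Scg2 values at night and by day lay in opposite order in the 2 genotypes, though neither time difference passed (DKO -0.30, adjusted p = 0.166, and WT 0.20, adjusted p = 0.217). Every Night DKO value (31.1 to 38.0 FPKM) was below every Day DKO value (38.1 to 46.8 FPKM), as for 6.44% of all genes. Every Night WT value (34.4 to 35.7 FPKM) was above every Day WT value (27.5 to 33.1 FPKM), as for 24.3% of all genes. The lowest Day DKO value and the highest Night DKO value were close together. The difference between the time effects was -0.49 on the log2 scale, and the limma interaction did not pass over all genes (unadjusted p = 0.0018, adjusted p = 0.463).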

How the results depend on the processing

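Of 1230 single-member differences under the 18 alternatives, 1121 kept their direction and side of the threshold, 41 lost a call, 2 gained one and 66 changed sign, none of the last while called. Vgf by day (0.57 to 0.67) and averaged over time (0.43 to 0.48) was called in every setting. The cause of the changes below was not tested, except that fewer genes or samples enter some fits by construction.

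By day, 150 genes and 3 members were called, against 26 and 1 with no filter on low values, 50 and 1 with only the groups compared, and 4 and 1 with choroid plexus level as a covariate. At night, 3 genes were called, against 15 with only the groups compared and 5 with the replicate block. In DKO over time, 38 genes and 1 member were called, against 21 genes with no filter, 69 with median-of-ratios scaling, 15 genes and 0 members after adding the choroid plexus covariate, and 0 members with only the groups compared. In WT over time, 212 genes were called, against 64 with no filter, 55 with median-of-ratios scaling and 23 with only the groups compared. Averaged over time, 238 genes and 3 members were called by genotype, against 24 and 1 with no filter and 108 and 2 with the covariate. Averaged over genotype, 770 genes were called by time, against 489 after median-of-ratios scaling and 452 with the covariate.

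Leaving out 1 library at a time gave 13 to 205 genes and 1 to 3 members by day, 2 to 38 genes and 0 members at night, 19 to 55 genes and 0 to 1 members over time in DKO, and 1 to 213 genes over time in WT. It gave 0 to 1 genes for the interaction, 80 to 255 genes and 1 to 4 members for genotype averaged over time, and 243 to 854 genes for time averaged over genotype. Without 1 library, differences that changed sign ranged by day from -0.042 to 0.53 for Crh, and at night from -0.11 to 0.034 for Scg2, -0.011 to 0.22 for Pdyn and -0.16 to 0.047 for Tac1. Over time in DKO they ranged from -0.043 to 0.017 for Chga, -0.094 to 0.085 for Penk, -0.094 to 0.14 for Pdyn, -0.097 to 0.031 for Adcyap1 and -0.42 to 0.14 for Crh. Over time in WT they ranged from -0.045 to 0.098 for Chga, -0.17 to 0.065 for Penk, -0.13 to 0.10 for Tac1 and -0.17 to 0.092 for Crh. For the interaction the ranges were -0.11 to 0.031 for Chga, -0.058 to 0.18 for Penk and -0.37 to 0.19 for Crh. For genotype averaged over time they were -0.046 to 0.070 for Pdyn, -0.044 to 0.060 for Tac1 and -0.034 to 0.027 for Pcsk1. For time averaged over genotype they were -0.029 to 0.042 for Chga, -0.084 to 0.036 for Penk and -0.24 to 0.047 for Crh.

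Other sign changes were all in small differences. With median-of-ratios scaling they were Penk (-0.018) and Pdyn (-0.0054) over time in DKO, Chga (-0.060), Chgb (-0.0054) and Tac1 (-0.053) over time in WT, Chga in the interaction (0.017), Pdyn (-0.0042) and Pcsk1 (-0.014) by averaged genotype, and Chga (-0.051) by averaged time. With the choroid plexus covariate they were Tac1 over time in WT (-0.0042), Pdyn (-0.063) and Tac1 (0.031) by averaged genotype, and Scg2 (0.0015), Chga (-0.025), Penk (0.043) and Pdyn (0.0059) by averaged time. With a pseudocount of 0.1 it was Tac1 over time in WT (-1.5e-05).

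The replicate numbers of the labels did not meet the rule for pairs, which asks for every same-numbered pair over 0.1. Deviations of same-numbered libraries of different groups correlated between -0.116 and 0.247, with a median of 0.057 and 7 of 18 pairs over 0.1, those of other pairs between -0.204 and 0.220, with a median of -0.029 and 4 of 36 over 0.1, and 9 of 12 libraries correlated best with their own number. With the replicate block, Penk was called higher by averaged genotype (0.34, adjusted p = 0.0138, range over alternatives 0.0138 to 0.234), which gave 4 members in place of 3, and the members called were otherwise as without it. Members at or under 2 FPKM rest on few fragments, and a depth for them is not known.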

Other observations

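The ratio of Vgf to Pcsk1, both per transcript length, is a pair chosen after the values were seen. It was 4.67, 5.31 and 4.56 in Night DKO, against 3.87, 3.43 and 3.23 in Night WT libraries. By day the ratio was 5.07, 5.93 and 6.97 in Day DKO, against 3.81, 4.42 and 4.58 in Day WT libraries. The genotypes did not overlap at either time, and no test was run on this ratio. The ratio of Chgb to Chga was 3.11, 3.29 and 3.53 in Night DKO, against 3.59, 3.56 and 3.42 in Night WT libraries, and 3.61, 4.01 and 4.27 in Day DKO, against 3.35, 3.10 and 3.74 in Day WT libraries, with overlap at both times.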
